A study of Caenorhabditis elegans with 44 samples.

Results

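Histone genes encode the proteins around which DNA is wound into nucleosomes. They were taken as every gene whose symbol starts with his- or hil-, with htz-1 and htas-1 added, in tables of poly(A) RNA from adult Caenorhabditis elegans in which the heat shock factor HSF-1 was removed from the germline for 8, 16 or 24 h. The Ensembl annotation of WBcel235 holds 82 such genes. Of these, 42 had a row in at least 1 of the 3 tables, and his-46 and his-56 held identical values throughout and were counted once, as his-46, which leaves 41 histone genes of the 11430 genes listed in all. The tables listed 35 of them at 8 h, 36 at 16 h and 40 at 24 h, and each listed histone gene passed the filter on low values (at least 1 on the linear scale of the deposited values in as many libraries as a group holds). The other 40 annotated genes were not analysed here. By family, the 41 are 7 linker histones H1, 8 H2A genes, the H2A.Z gene htz-1, the sperm H2A gene htas-1, 6 H2B, 8 H3, 3 H3.3 or H3.3-like and 7 H4 genes.

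The core histones H2A, H2B, H3 and H4 form the octamer of the nucleosome, and linker histone H1 binds the DNA that enters and leaves it. Replication-dependent core histone genes come in many near-identical copies, lie in clusters and, in animals, generally make mRNAs that end in a stem-loop with no poly(A) tail, while variant genes such as those of H3.3 and H2A.Z are expressed outside S phase as well and make ordinary polyadenylated mRNA. The C. elegans germline divides throughout adult life and loads oocytes with histone mRNA and protein for the cleavages of the embryo. The libraries were made from poly(A)-selected RNA, which favours polyadenylated transcripts. Ribosomal RNA (rRNA) still took 1.26 to 31.4% of the reads at 8 h, 1.16 to 3.4% at 16 h and 3.78 to 18.3% at 24 h. Some mRNA without a tail may therefore be in the levels given here, and its part was not measured. Among the 82 annotated genes, 18 contain an intron and 64 do not. Rows were listed for 16 of the 18 with an intron and for 26 of the 64 without one.

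The 4 groups at each time were 2 strains, each kept on auxin or on ethanol as the solvent control. JTL621, the HSF-1-AID strain, has the tagged allele hsf-1::aid::gfp on chromosome I, unc-119(ed3) on III, and on IV the insertion ieSi38, in which the germline promoter sun-1p drives TIR1::mRuby with Cbr-unc-119(+). TIR1 is a plant F-box protein that marks degron-tagged proteins for destruction in the presence of auxin. The TIR1-only strain CA1199 carries the same unc-119(ed3) and ieSi38 and no degron on HSF-1, so all 4 groups carry TIR1 under the germline promoter. Synchronized animals were grown for 51 h to young adults, about 120 animals per condition were moved by picking to auxin or ethanol plates, and none were heat-shocked. Each group had 4 libraries at 8 and 16 h and 3 at 24 h, 44 in all. Nothing in the labels ties replicates to cultures of their own, and the p-values cover only the scatter among these libraries, which may be technical.

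At 8 h, libraries held between 12.5 and 50.7 M reads. Those of 16 h held between 31 and 57.7 M and those of 24 h between 13.3 and 24.4 M, and histone genes took 0.118 to 0.269% of the reads. The 4 libraries numbered 4 at 8 h were deeper than the other 12 of that time. At 24 h, rRNA took 18.3% of the reads of HSF-1-AID ethanol replicate 3 and 3.78 to 10.9% in the other libraries. The degron acts on HSF-1 protein, so hsf-1 mRNA does not test the depletion: at 24 h it was at 77.3 ± 3.43 CPM (SD, n = 3) in HSF-1-AID animals on auxin and at 53.8 ± 6.15 CPM on ethanol (log2 difference 0.53, adjusted p = 0.000567 by limma), and TIR1-only animals had means of 68.8 on auxin and 69.6 CPM on ethanol, between these groups. HSF-1 protein itself was not measured. All 10 genes of a list of mitotic and meiotic germ cell markers were listed at each time. The RNA came from whole animals, so fewer cells of a type and less RNA per cell cannot be told apart. The 3 tables were normalized separately, and no test was made across times.

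Per kilobase of exon, htz-1 was the most abundant histone transcript, followed by the linker histones hil-4 and hil-5 and the H3.3 genes. In HSF-1-AID animals on ethanol at 16 h, htz-1 was at 754 CPM per kb, hil-4 at 623, hil-5 at 602, his-72 at 359 and his-74 at 355 CPM per kb. Below them came his-68 at 99.1, hil-2 at 98.9, his-35 at 89.4 and his-37 at 79.9 CPM per kb, and the remaining 27 members were at or under 42.5 CPM per kb. Of these abundant transcripts, only his-68 comes from a gene without an intron. Intronless core histone genes in the quartets of chromosome IV, such as his-60 and his-63, were at 31.2 and 12.7 CPM per kb. The order within the first group is of means: the CPM values of hil-4 in that group ran from 531 to 661 and those of hil-5 from 457 to 592, and his-72 and his-74 overlapped likewise.

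Histone transcripts moved in both directions with depletion of HSF-1, as genes did over all those tested. The comparison of HSF-1-AID animals on auxin with those on ethanol called a gene at a Benjamini-Hochberg adjusted p under 0.05 in limma, over all genes tested at that time. At 16 h, 6 of the 36 histone genes rose and 6 fell, that is 16.7% in each direction, where 22.3% of all 10173 genes tested rose and 19.8% fell. At 24 h, 5 of the 40 tested members, his-3, his-5, his-7, his-8 and his-25, reached the minimum in 3 libraries only with the depleted group, so those high in that group had to differ. Of the other 35, 8 rose and 11 fell, that is 22.9% and 31.4%, where 18.2% of all 10411 genes rose and 20.2% fell. Genes that passed the filter in the same way were not left out of the 10411, here or in later 24 h shares of all genes. With the 5 included, 11 of 40 were called higher and 11 lower. The median log2 difference was 0.00 over the 36 members at 16 h and -0.28 over the 35 at 24 h (-0.12 over all 40), and the medians of all genes tested were -0.03 and -0.01.

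Same-numbered replicates deviated together at 24 h, so the fit with the replicate number as a block is given where it changes a call. That fit called 12 histone genes higher and 15 lower at 24 h, where 25.9% and 28.1% of all genes were called higher and lower, and 9 higher and 15 lower among the 35. It kept all 22 calls made over the 40 and added hil-3, his-24, his-46, his-72 (lower) and his-57 (higher), with adjusted p of 0.00745, 0.021, 0.0144, 0.00266 and 0.0111. In the fit without the block, leaving out 1 library in turn gave 14 to 23 calls of 40 at 24 h, the fewest without HSF-1-AID auxin replicate 2, and 10 to 13 calls at 16 h. Of the 22 calls at 24 h, 12 held in each of these fits, and of the 12 at 16 h, 10 did. The 22 include his-5, his-7 and his-8, and those that held include his-5, which passed the filter only with the depleted group. Among intronless core genes that fell at 24 h, his-45 and his-59 were not called without HSF-1-AID ethanol replicate 3, the library rich in rRNA reads. The calls of his-55, his-60, his-61, his-62 and his-63 held without it.

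**Figure D1:**
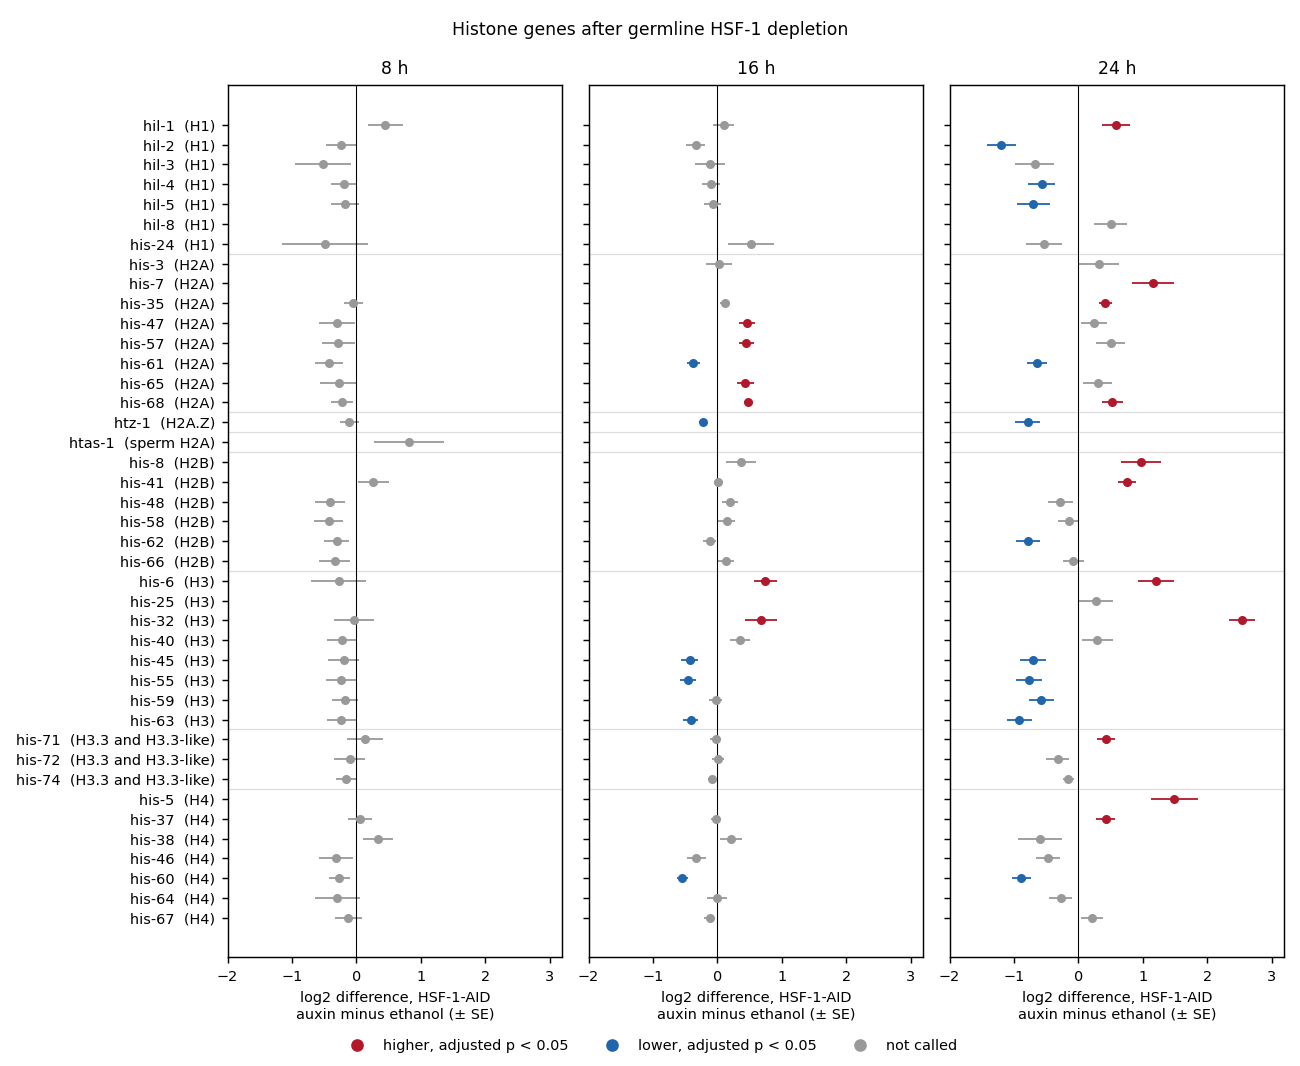
Log2 difference of HSF-1-AID animals on auxin and on ethanol for each tested histone gene (rows, ordered by family) at 8, 16 and 24 h, with points at the estimate, bars of 1 SE on each side, and red and blue for genes called higher and lower. No gene is called at 8 h, and at 24 h the 22 calls, his-5, his-7 and his-8 among them, spread from -1.20 for hil-2 to 2.54 for his-32.

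Linker histones, which compact chromatin between nucleosomes, were lower in depleted animals at 24 h in their abundant members. hil-2 was at 16.7, 21 and 24.7 CPM in the HSF-1-AID auxin libraries and at 37.5, 51.1 and 54.9 CPM on ethanol, and the 6 TIR1-only libraries lay between 36.3 and 60.8 CPM. Depleted libraries were the 3 lowest of the 12, a fall of 2.3-fold in the means (log2 difference -1.20, SE 0.23, adjusted p = 0.00103). hil-4 was at 219, 294 and 326 CPM in the HSF-1-AID auxin libraries and at 335, 428 and 482 CPM on ethanol, and the 6 TIR1-only libraries lay between 331 and 527 CPM. Its depleted libraries also lay below the other 9 (log2 difference -0.57, SE 0.21, adjusted p = 0.0435). hil-5 fell as well, by a log2 difference of -0.70 (SE 0.26, adjusted p = 0.0478), with means of 210.1 ± 50.9 CPM on auxin and 341 ± 76.8 CPM on ethanol (SD, n = 3). At 16 h none of these 3 passed the test, with log2 differences of -0.33, -0.10 and -0.07.

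The low-level member hil-1 went the other way. It was at 3.64, 4.55 and 4 CPM in the HSF-1-AID auxin libraries and at 3.04, 2.33 and 2.65 CPM on ethanol, and the 6 TIR1-only libraries lay between 2.26 and 3.87 CPM. Its depleted libraries lay above their own ethanol controls and overlapped the TIR1-only libraries (log2 difference 0.59, SE 0.21, adjusted p = 0.044). Of the others, hil-3 and his-24, the gene of the histone H1.1, had 24 h log2 differences of -0.68 (SE 0.30, adjusted p = 0.0946) and -0.53 (SE 0.28, adjusted p = 0.157), and hil-8, listed at 24 h only, one of 0.50 (SE 0.26, adjusted p = 0.146). Summed over the listed H1 genes, the level at 24 h was 524 ± 111 CPM in depleted animals and 819 ± 162, 821 ± 174 and 863 ± 216 CPM in HSF-1-AID ethanol, TIR1-only auxin and TIR1-only ethanol animals. The calls of hil-1, hil-4 and hil-5 are close to the threshold: leaving out 1 library ended them in 7, 6 and 7 of 12 fits, with adjusted p up to 0.138, 0.164 and 0.181, while with the replicate block they were 0.0177, 1.42e-07 and 4.64e-08. Centring each library on its median gene also ended the calls of hil-4 and hil-5, and robust shrinkage that of hil-5.

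htz-1 encodes the variant H2A.Z, which replaces H2A in nucleosomes near gene starts. At 16 h it was at 451, 485, 479 and 481 CPM in the HSF-1-AID auxin libraries and at 578, 576, 540.3 and 520.4 CPM on ethanol, and the 8 TIR1-only libraries lay between 442 and 586 CPM. The depleted libraries were below their ethanol controls and inside the range of the TIR1-only libraries (log2 difference -0.22, SE 0.06, adjusted p = 0.01). At 24 h it was at 239, 320.0 and 347 CPM in the HSF-1-AID auxin libraries and at 426, 559.7 and 575 CPM on ethanol, and the 6 TIR1-only libraries lay between 381 and 601 CPM. All 3 depleted libraries were then below the other 9 (log2 difference -0.79, SE 0.20, adjusted p = 0.00686), and the means were 302 ± 56.1 and 520.4 ± 81.8 CPM (SD, n = 3). Both calls held without any 1 library. At 8 h the log2 difference was -0.11 (SE 0.15, adjusted p = 0.995), and in each of the 4 groups the highest of the 4 values was that of the deep library numbered 4.

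htas-1, the H2A variant of sperm, was listed at 8 h only. It was at 1.3, 1.75, 2.42 and 2.83 CPM in HSF-1-AID animals on auxin, 0.765, 0.541, 2.15 and 1.57 on ethanol, 2.55, 0.543, 0.692 and 1.71 in TIR1-only animals on auxin and 2.01, 0.394, 1.98 and 1.89 on ethanol. The 4 groups overlapped, and the log2 difference of depletion was 0.81 (SE 0.54, adjusted p = 0.995). Sperm markers showed the same presence by time: 33 genes of a list of major sperm proteins and other sperm genes were listed at 8 h and none at 16 or 24 h. Their summed level at 8 h ran from 212 to 629.5 CPM in depleted libraries and from 125 to 577 CPM in their ethanol controls.

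Of the canonical H2A genes called, his-61 fell and the others rose. At 16 h, his-68, on chromosome I, was at 48.9, 57.7, 53.6 and 52 CPM in the HSF-1-AID auxin libraries and at 39.6, 43, 35.2 and 34.3 CPM on ethanol, and the 8 TIR1-only libraries lay between 33.6 and 42.7 CPM. All 4 depleted libraries were above the other 12 (log2 difference 0.48, SE 0.08, adjusted p = 0.000131), and at 24 h the 3 depleted libraries were again the highest (log2 difference 0.53, SE 0.16, adjusted p = 0.0173). The 24 h call was lost without HSF-1-AID auxin replicate 2 or HSF-1-AID auxin replicate 3 or HSF-1-AID ethanol replicate 1 (adjusted p up to 0.0682). his-47, his-57 and his-65, whose rows differ little and are treated below as near copies, rose at 16 h by log2 differences of 0.46, 0.45 and 0.44 (adjusted p = 0.00745, 0.00554 and 0.0138). At 24 h these 3 had log2 differences of 0.25, 0.50 and 0.30 and did not pass the test.

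At 24 h, his-35, an H2A gene with an intron, was at 58.9, 53.1 and 48.5 CPM in the HSF-1-AID auxin libraries and at 41.1, 41.3 and 37.4 CPM on ethanol, and the 6 TIR1-only libraries lay between 38.6 and 45.8 CPM. All 3 depleted values were the highest (log2 difference 0.42, SE 0.10, adjusted p = 0.00449). his-7 was at 0.474 ± 0.162 CPM on ethanol and 1.16 ± 0.0572 CPM in depleted animals; it entered the 24 h test only through its 3 depleted libraries, so its log2 difference of 1.16 is a description. his-61 was the H2A gene that fell. At 16 h it was at 6.63, 7.27, 7.55 and 6.58 CPM in the HSF-1-AID auxin libraries and at 9.76, 10.2, 9.07 and 7.59 CPM on ethanol, and the 8 TIR1-only libraries lay between 7.69 and 10.3 CPM. At 24 h it was at 6.04, 7.42 and 7.65 CPM in the HSF-1-AID auxin libraries and at 9.42, 10.2 and 13.9 CPM on ethanol, and the 6 TIR1-only libraries lay between 7.86 and 9.29 CPM. Depletion gave the lowest values at both times (log2 difference -0.38, SE 0.10, adjusted p = 0.00642 at 16 h, and log2 difference -0.64, SE 0.16, adjusted p = 0.00531 at 24 h). his-3 did not pass the test at either time, at 0.02 and 0.32. The sum of the listed H2A genes at 24 h was 129.8 ± 5.2 CPM in depleted animals and 101 ± 7.89 CPM in their ethanol controls, higher where the H2A.Z transcript was lower; sums were not tested.

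Among H2B genes, his-41 rose and his-62 fell at 24 h. his-41 was at 27.6, 26.1 and 26.2 CPM in the HSF-1-AID auxin libraries and at 20.0, 15.5 and 12.6 CPM on ethanol, and the 6 TIR1-only libraries lay between 15.8 and 17.9 CPM. Its 3 highest values were those of the depleted libraries (log2 difference 0.75, SE 0.14, adjusted p = 0.000856). his-41 overlaps C50F4.6 on the same strand, and C50F4.6 had a log2 difference of -0.34 at 24 h (SE 0.18, adjusted p = 0.168). his-62 was at 5.51, 5.85 and 5.35 CPM in the HSF-1-AID auxin libraries and at 7.82, 9.11 and 12.7 CPM on ethanol, and the 6 TIR1-only libraries lay between 6.6 and 9.17 CPM, with the depleted libraries the 3 lowest (log2 difference -0.79, SE 0.19, adjusted p = 0.00469). his-8 was at 1.28, 1.41 and 2.02 CPM in the HSF-1-AID auxin libraries and at 0.618, 0.626 and 1 CPM on ethanol, and the 6 TIR1-only libraries lay between 0.346 and 1.05 CPM. Of the 9 libraries outside the depleted group 2 reached the minimum, so his-8 too entered the test through its depleted libraries, and its log2 difference of 0.97 is a description. his-48, his-58 and his-66, which lie in the quartets of chromosome IV, had 24 h log2 differences of -0.28, -0.15 and -0.08 and did not pass the test.

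The H3 genes held both the greatest rise and some of the clearest falls. At 16 h his-32 was at 2.98, 4.3, 2.64 and 2.36 CPM in the HSF-1-AID auxin libraries and at 1.89, 1.99, 1.69 and 1.86 CPM on ethanol, and the 8 TIR1-only libraries lay between 0.976 and 2.64 CPM. The depleted libraries were above their ethanol controls and overlapped 1 TIR1-only library (log2 difference 0.68, SE 0.25, adjusted p = 0.0365), a call that 6 of 16 single-library omissions ended (adjusted p up to 0.131). At 24 h his-32 was at 7.91, 7.58 and 9.76 CPM in the HSF-1-AID auxin libraries and at 1.49, 1.02 and 1.58 CPM on ethanol, and the 6 TIR1-only libraries lay between 1.43 and 1.95 CPM. The depleted libraries stood far above the other 9, a 6.17-fold difference in the means (log2 difference 2.54, SE 0.20, adjusted p = 7.33e-07), and this call held in each fit tried. his-32 is 1 of 6 histone genes in its cluster on chromosome IV (8331044 to 8336340), and the other 5, his-29, his-30, his-31, his-33 and his-34, were not analysed here.

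At 24 h, his-6, another H3 gene, was at 2.67, 2.38 and 4 CPM in the HSF-1-AID auxin libraries and at 1.03, 0.911 and 1.86 CPM on ethanol, and the 6 TIR1-only libraries lay between 0.83 and 1.28 CPM. The lowest depleted library was above the highest of the others (log2 difference 1.21, SE 0.28, adjusted p = 0.00418), and at 16 h the 4 depleted libraries were also the highest (log2 difference 0.75, SE 0.18, adjusted p = 0.00375). At 24 h, his-63 was at 3.53, 3.09 and 3.78 CPM in the HSF-1-AID auxin libraries and at 5.82, 6.15 and 8.09 CPM on ethanol, and the 6 TIR1-only libraries lay between 5.41 and 8.14 CPM. All 3 depleted libraries were below the other 9 (log2 difference -0.92, SE 0.19, adjusted p = 0.00179), after a smaller fall at 16 h (log2 difference -0.42, SE 0.12, adjusted p = 0.0094). The near copies his-45 and his-55 fell at both times, with log2 differences of -0.43 and -0.46 at 16 h and of -0.71 and -0.77 at 24 h (adjusted p = 0.0154, 0.0087, 0.0148 and 0.00858). his-45 was not called at 16 h without HSF-1-AID auxin replicate 2 or HSF-1-AID ethanol replicate 2 (adjusted p up to 0.0539), nor at 24 h without HSF-1-AID auxin replicate 2 or HSF-1-AID ethanol replicate 3 (up to 0.0651). his-59 fell at 24 h (log2 difference -0.57, SE 0.19, adjusted p = 0.0321), a call lost with libraries centred on their median gene and without HSF-1-AID auxin replicate 1 or HSF-1-AID auxin replicate 2 or HSF-1-AID ethanol replicate 3 (adjusted p up to 0.144). his-25 and his-40 did not pass the test, at 0.27 and 0.30. All annotated H3 genes of this class have a coding length of 411 bases. The summed H3 level at 24 h was 33.1 ± 4.09 CPM in depleted animals and 36.9 ± 10.2 CPM on ethanol.

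The H3.3 genes, whose product is placed in chromatin outside replication, had 1 call, at 24 h. At 24 h, his-71 was at 10.3, 10.8 and 10.6 CPM in the HSF-1-AID auxin libraries and at 8.08, 8.42 and 7.02 CPM on ethanol, and the 6 TIR1-only libraries lay between 7.1 and 9.48 CPM. Its depleted libraries were the 3 highest (log2 difference 0.43, SE 0.14, adjusted p = 0.0244), and the call was lost without HSF-1-AID auxin replicate 2 or HSF-1-AID auxin replicate 3 or HSF-1-AID ethanol replicate 3 (adjusted p up to 0.0915). The more abundant his-72 and his-74 had log2 differences of -0.32 (SE 0.17, adjusted p = 0.168) and -0.16 (SE 0.08, adjusted p = 0.153) at 24 h. With the replicate block his-72 was called lower.

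Among H4 genes, which all have a coding length of 312 bases, his-60 fell at both later times. At 16 h it was at 6.53, 5.99, 7.24 and 6.9 CPM in the HSF-1-AID auxin libraries and at 10.6, 10.2, 9.21 and 8.94 CPM on ethanol, and the 8 TIR1-only libraries lay between 8.89 and 11.3 CPM. At 24 h it was at 7.48, 5.96 and 6.48 CPM in the HSF-1-AID auxin libraries and at 10.8, 11.6 and 15 CPM on ethanol, and the 6 TIR1-only libraries lay between 9.53 and 13.5 CPM. The depleted libraries were the lowest at both times (log2 difference -0.54, SE 0.08, adjusted p = 0.000102 at 16 h, and log2 difference -0.89, SE 0.15, adjusted p = 0.000421 at 24 h). At 24 h, his-5 was at 2.03, 2.27 and 1.48 CPM in the HSF-1-AID auxin libraries and at 0.309, 0.854 and 0.788 CPM on ethanol, and the 6 TIR1-only libraries lay between 0.187 and 0.752 CPM. It held 33 to 42 reads in the depleted libraries and 3 to 15 in the other 9, none of which reached the minimum, so its log2 difference of 1.49 was built in by the filter and is a description. At 24 h, his-37, an H4 gene with an intron, was at 39.7, 39.9 and 32.7 CPM in the HSF-1-AID auxin libraries and at 31.6, 28.6 and 23.6 CPM on ethanol, and the 6 TIR1-only libraries lay between 26.9 and 38.8 CPM. The depleted libraries were above their ethanol controls and overlapped the TIR1-only libraries (log2 difference 0.42, SE 0.14, adjusted p = 0.0341). The call was lost with totals taken without rRNA reads and without HSF-1-AID auxin replicate 1 or HSF-1-AID auxin replicate 2 or HSF-1-AID ethanol replicate 2 or HSF-1-AID ethanol replicate 3 (adjusted p up to 0.143). his-37 overlaps nstp-10 on the other strand, whose 24 h log2 difference was 0.03. his-38, his-46, his-64 and his-67 did not pass the test, at -0.59, -0.47, -0.28 and 0.21, and the summed H4 level was 64.3 ± 5.05 CPM in depleted animals against 61.4 ± 3.23 CPM.

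**Figure D2:**
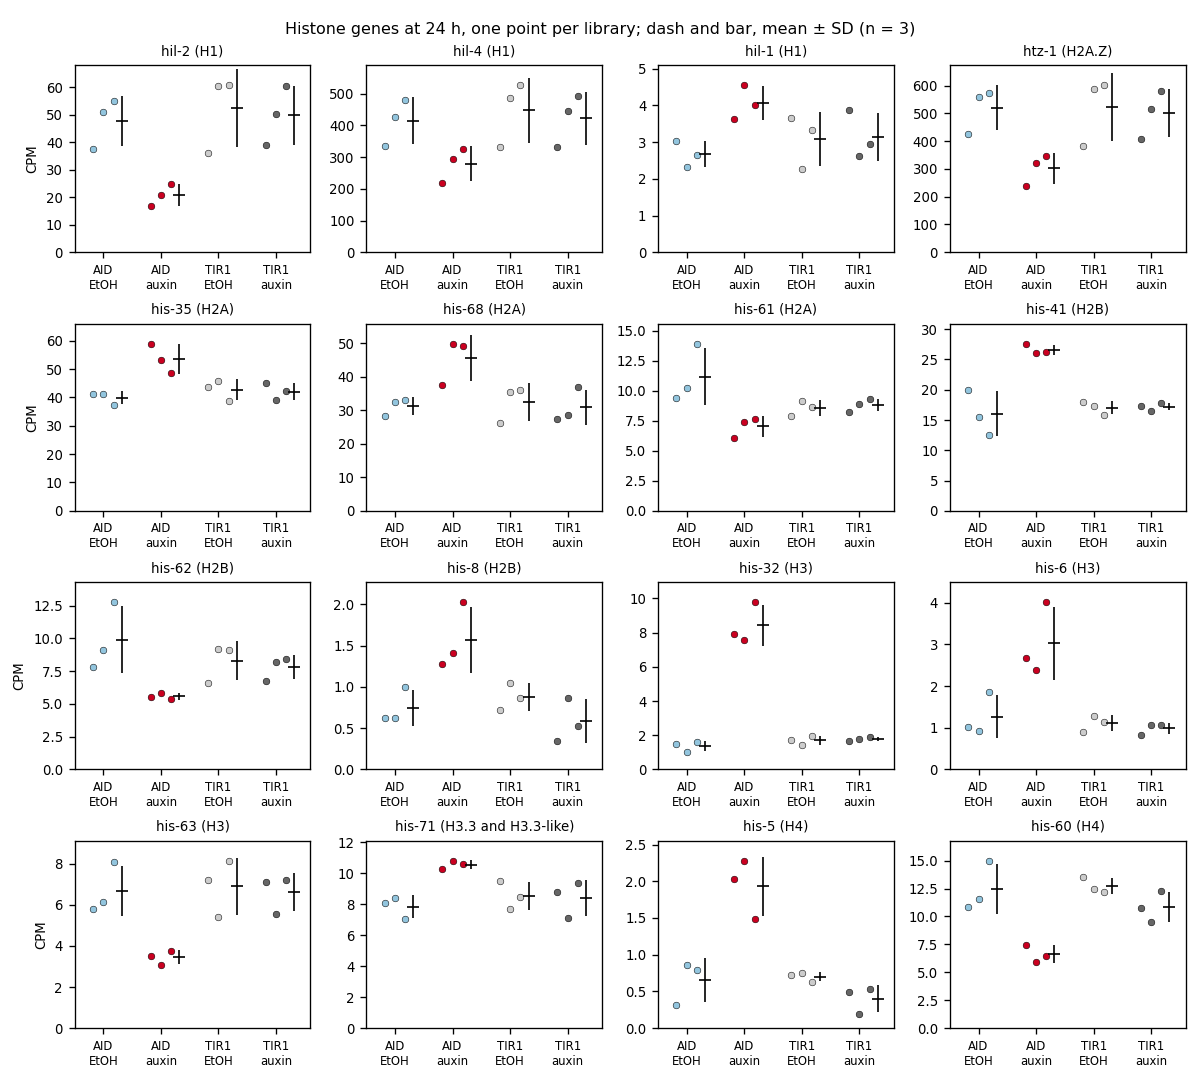
Normalized level in CPM (y axis, from 0) of 16 histone genes in each library at 24 h, with 3 points per group for the HSF-1-AID (AID) and TIR1-only (TIR1) strains on ethanol (EtOH) or auxin, and a dash with a bar for mean ± SD. The HSF-1-AID auxin points lie below all others in hil-2, htz-1, his-63 and his-60 and above them in his-32, his-41 and his-6.

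At 24 h, genes of the same family moved in opposite directions at different loci. In the quartet on chromosome IV (WBcel235, 7485834 to 7488659), all 4 members his-61, his-62, his-60 and his-59 fell, with log2 differences from -0.89 to -0.57. The intron-containing group his-35, his-41 and his-37 on chromosome V (9544659 to 9547607) rose in all 3 members, by 0.42 to 0.75. At 16 h, 2 of the 4 were called lower, and 0 of the 3 were called, with log2 differences of -0.03 to 0.11. In the test against the auxin effect of the TIR1-only strain, described below, 2 of the 4 were called lower and 2 of the 3 higher at 24 h. Among all genes, depletion called 22.3% higher and 19.8% lower at 16 h, and 18.2% and 20.2% at 24 h. The test against the TIR1-only strain called 11.4% and 12.7% at 24 h. A locus holds too few genes to set against these shares. Leaving out 1 library ended the 24 h depletion call of his-59 in 3 of 12 fits and that of his-37 in 4. In the quartet on chromosome V (WBcel235, 8532715 to 8536716, with his-39 beside it), his-6 rose by 1.21 at 24 h. Its neighbours his-8, his-7 and his-5 had log2 differences of 0.97, 1.16 and 1.49, but a row as low as theirs would not have been tested at 24 h had it not been high in depleted animals, so the 4 do not show that neighbours moved together. Histone genes less than 5000 bases from the next were taken as a locus.

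In the 3 other quartets of chromosome IV, between 11324056 and 11407427, members of 1 quartet differed in direction. At 16 h their H2A genes his-47, his-57 and his-65 rose by 0.44 to 0.46 while their H3 genes his-45, his-55 and his-63 fell, with log2 differences of -0.46 to -0.42. Their H2B genes his-48, his-58 and his-66 had log2 differences of 0.20, 0.15 and 0.13 and their H4 genes his-46 and his-64 of -0.33 and -0.0014, and none of these passed the test. These genes are not independent measures of each other. The rows of his-45 and his-55, of his-47, his-57 and his-65, of his-58 and his-66 and of his-46 and his-56 correlated over 0.95 in each table with means within 1.13-fold, and how reads that match several copies were counted is not given in the sources used here. With each of these 4 groups counted once, 9 histone genes were called at 16 h (4 higher, 5 lower) and 21 at 24 h (11 higher, 10 lower). The 11 include his-5, his-7 and his-8, which passed the filter only with the depleted group. Before near copies were merged, 36 and 40 were tested. Over all genes, 22.3% rose and 19.8% fell at 16 h, and 18.2% and 20.2% at 24 h. his-57 also overlaps klp-12 on the other strand, which rose by 0.35 at 16 h and 0.62 at 24 h (adjusted p = 3.25e-06 and 2.9e-05), and its part in the his-57 values was not tested.

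**Figure D3:**
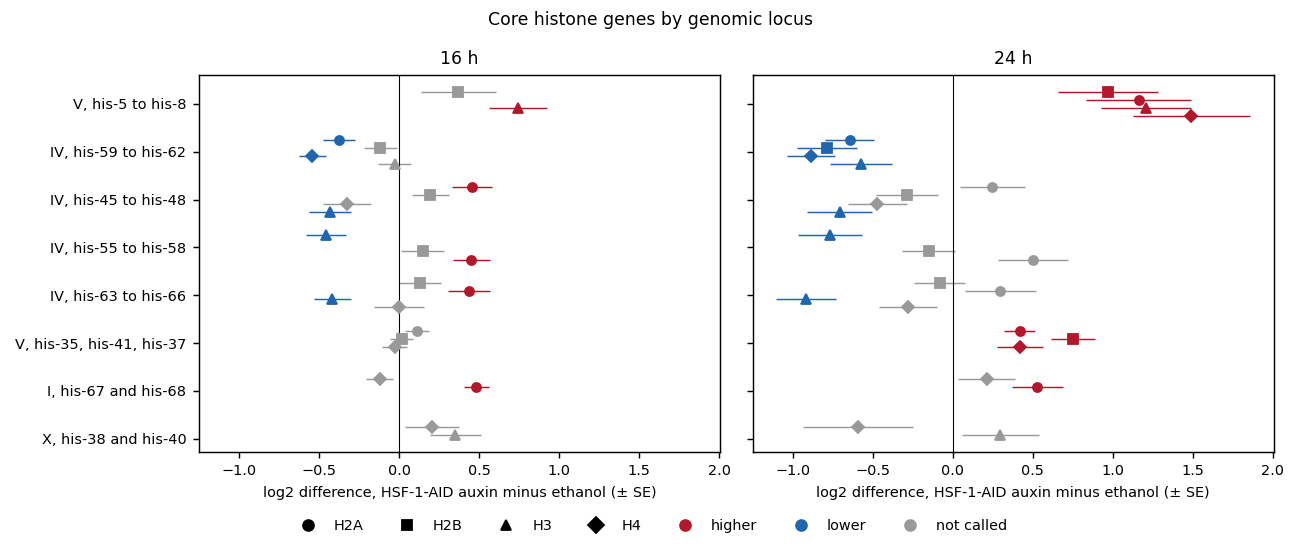
Log2 difference of HSF-1-AID animals on auxin and on ethanol (x axis, bars of 1 SE on each side) at 16 and 24 h for core histone genes, arranged by locus and, within a locus, in their order on the chromosome; the marker gives the histone and the colour the call. At 24 h the his-59 to his-62 quartet lies wholly to the left. The his-5 to his-8 quartet lies to the right, where the filter on low values placed his-5, his-7 and his-8.

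By intron, 3 of 20 genes without one rose at 24 h and 7 fell, and 5 of 15 with one rose and 4 fell, leaving out the 5 members that reached the minimum only with the depleted group. Over all genes, 18.2% rose and 20.2% fell. At 16 h the counts were 5 higher and 5 lower of 22 without an intron, and 1 and 1 of 14 with one, where 22.3% of all genes rose and 19.8% fell. The 1 with an intron that rose at 16 h was his-57, a near copy of the intronless his-47 and his-65. Near copies were counted apart here, so the counts are not of independent genes. The difference between the 2 kinds of gene was not tested.

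Whether these changes exceed those that auxin made in the TIR1-only strain was tested as the difference of the auxin effects of the 2 strains. At 16 h, 7 histone genes of 36 had a higher effect in the HSF-1-AID strain and 1 a lower one, against 17.2% and 12.4% of all genes. The 7 were his-68 at 0.63 (SE 0.11, adjusted p = 0.000609), his-47, his-57 and his-65, his-6, his-32 and his-40, with estimates from 0.63 to 0.97, and the 1 was his-60 at -0.46 (SE 0.12, adjusted p = 0.00939). The falls of htz-1, his-61, his-45, his-55 and his-63 at 16 h did not pass this test, with estimates of -0.07, -0.20, -0.31, -0.32 and -0.34. With totals taken without rRNA reads, the split was 5 higher and 3 lower, and his-32 and his-40 were not called. Leaving out 1 library in turn ended the call of his-32 in 13 of 16 fits and that of his-40 in 7.

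At 24 h, 4 of 35 were higher and 4 lower, against 11.4% and 12.7% of all genes, leaving out the 5 members that passed the filter only with the depleted group; over all 40 it was 7 and 4. The higher were his-32 at 2.47 (SE 0.28, adjusted p = 5.33e-05), his-6 at 1.36, his-41 at 0.73 and his-35 at 0.44. For his-5, his-8 and his-7, left out here, the values were 2.23, 1.54 and 1.37. The lower were hil-2 at -1.14 (SE 0.32, adjusted p = 0.0206), his-63 at -0.86, his-61 at -0.69 and his-60 at -0.65. htz-1 had an estimate of -0.74 (SE 0.28, adjusted p = 0.0735). With the replicate block the counts were 6 higher and 11 lower of 35 (9 and 11 of 40), against 20.3% and 21.3% of all genes: all 11 calls over the 40 were kept and hil-3, hil-4, hil-5, htz-1, his-45, his-55, his-62 (lower), his-57 and his-68 (higher) were added, htz-1 with an adjusted p of 3.79e-06. Without the block, the count over the 40 fell to between 5 and 9 when 1 library was left out. The calls of his-32 and his-41 held in each of those fits. That of his-5 held too, but it passed the filter only with the depleted group, so this is no support for it. The other 8 were lost in 2 (hil-2) to 11 (his-7) of 12. Without HSF-1-AID ethanol replicate 3, the library rich in rRNA reads, all 4 lower calls were lost, as were those of his-35 and his-7. Centring each library on its median gene gave 8 higher and 1 lower of 40, ending the calls of his-60, his-61 and his-63. Totals without rRNA reads ended those of his-35, his-60 and his-7. The call of his-7 was also lost with a prior count of 0.5 read, library quality weights and robust shrinkage.

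No histone gene was called in the comparisons without depletion. For auxin against ethanol in the TIR1-only strain, 0 of 35, 36 and 40 were called by limma at 8, 16 and 24 h, where 0.246%, 0.147% and 0.00961% of all genes were, and 0, 2 and 0 had an unadjusted p under 0.05. For the 2 strains on ethanol, 0 were called at each time, where 0.00911%, 0.0295% and 0.00961% of all genes were, and 0, 1 and 1 had an unadjusted p under 0.05. These were his-40 at -0.38 at 16 h and his-61 at 0.36 at 24 h, as HSF-1-AID minus TIR1-only. At 16 h, 35 of the 36 estimates for auxin alone were below 0, with a median of -0.17 against -0.01 for all genes. The 2 with an unadjusted p under 0.05 were htz-1 at -0.15 and his-62 at -0.27. Depletion for 8 h likewise gave 0 calls of 35, where 0.283% of all genes were called, and 0 with an unadjusted p under 0.05, with a median of -0.23 against -0.01 for all genes and 29 of 35 estimates below 0. The difference of auxin effects at 8 h gave 0 as well, where 0.00911% of all genes were called, and 0 at an unadjusted p under 0.05. Without the 4 libraries numbered 4 the 8 h counts stayed at 0 and the median for depletion was -0.15.

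**Figure D4:**
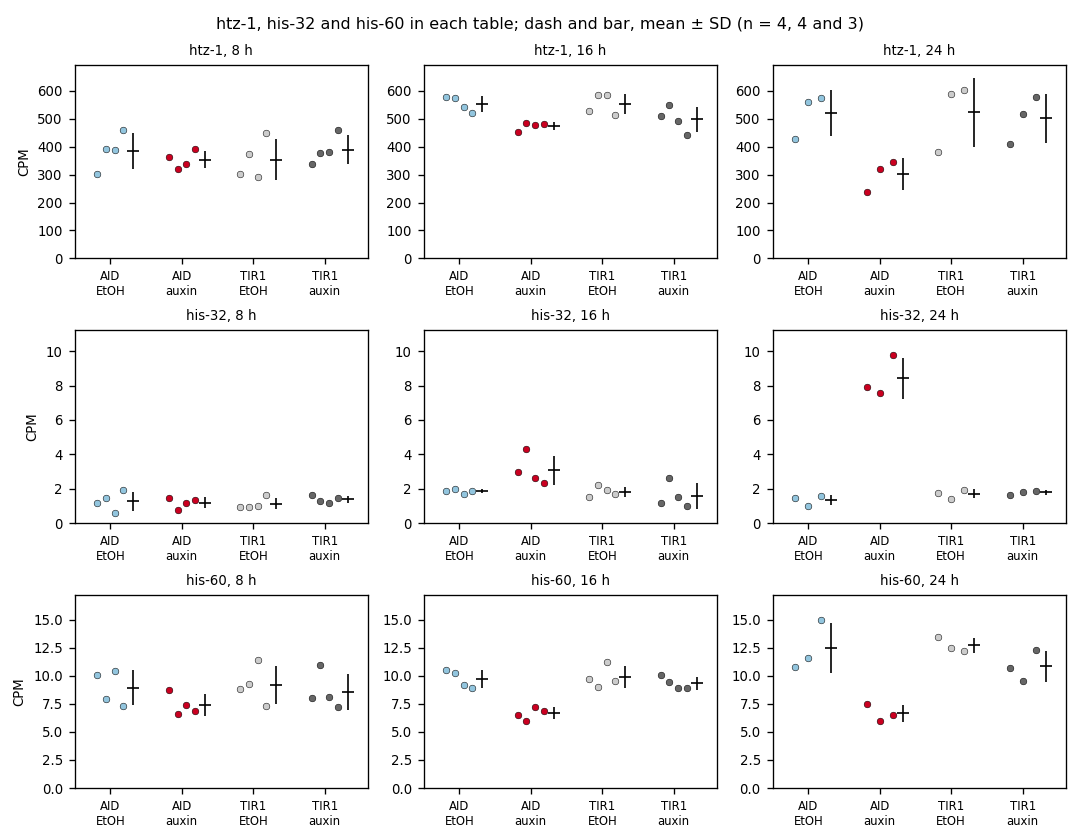
CPM (y axis, from 0, 1 scale per gene) of htz-1, his-32 and his-60 in each library at 8, 16 and 24 h, with groups as in the plot of 24 h values and a dash with a bar for mean ± SD. Levels of different times come from separately normalized tables. The HSF-1-AID auxin libraries overlap the other groups at 8 h and lie apart from them at 24 h, lower for htz-1 and his-60 and higher for his-32.

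Lists of genes that handle histones, histone mRNA or DNA replication were counted beside the background, which for all genes was 22.3% higher and 19.8% lower at 16 h and 18.2% and 20.2% at 24 h. Of 17 histone chaperones and CENP-A genes, 4 rose and 3 fell at 16 h and 1 rose and 5 fell at 24 h, with median log2 differences of 0.02 and -0.09 (all genes, -0.03 and -0.01). The 16 h counts are near the background. At 24 h the CENP-A gene hcp-3, whose product marks the centromere in place of H3, was at 51.2 ± 9.92 against 126 ± 3.16 CPM in HSF-1-AID animals on auxin and ethanol, a log2 difference of -1.31 (SE 0.14, adjusted p = 9.07e-06). Its paralog cpar-1 was at 38.4 ± 3.46 against 85.1 ± 4.76 CPM, a log2 difference of -1.15 (SE 0.08, adjusted p = 2.87e-07), and nasp-2, a homolog of the H3-H4 chaperone NASP, at 778 ± 36.4 against 1688 ± 66 CPM, a log2 difference of -1.12 (SE 0.09, adjusted p = 1.19e-06). At 16 h the 3 smallest adjusted p were those of knl-2, which loads CENP-A, at 0.27 (SE 0.03, adjusted p = 4.63e-06), hcp-3 at -0.45 (SE 0.07, adjusted p = 0.000167) and the ASF1 homolog unc-85 at 0.22 (SE 0.04, adjusted p = 0.000572).

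Of 6 genes of histone mRNA 3′ end processing and decay, 2 rose at 16 h and 3 at 24 h and none fell, with medians of 0.08 and 0.15, on too few genes to set against the background. They were cpsf-2 and cpsf-3, subunits of the cleavage complex, at 0.62 (SE 0.09, adjusted p = 0.000151) and 0.43 (SE 0.10, adjusted p = 0.00446) at 24 h and 0.34 (SE 0.06, adjusted p = 0.000323) and 0.23 (SE 0.07, adjusted p = 0.0104) at 16 h, and at 24 h the 3′ exonuclease gene eri-1 at 0.30 (SE 0.11, adjusted p = 0.0445). cdl-1, the gene of the stem-loop binding protein, was not called. Of 12 S-phase genes, none rose, 6 fell at 16 h and 10 at 24 h, with medians of -0.20 and -0.89, where 19.8% and 20.2% of all genes fell. The smallest adjusted p at 24 h were those of the ribonucleotide reductase gene rnr-2 at -1.06 (SE 0.08, adjusted p = 4.95e-07) and the replicative helicase genes mcm-5 and mcm-6 at -0.89 (SE 0.08, adjusted p = 1.61e-06) and -0.97 (SE 0.09, adjusted p = 3.59e-06). At 16 h they were those of rnr-2 at -0.48 (SE 0.04, adjusted p = 4.62e-07), mcm-5 at -0.21 (SE 0.04, adjusted p = 0.000215) and mcm-6 at -0.23 (SE 0.04, adjusted p = 0.000334). At 8 h none of the 3 lists held a call.

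Among marker lists of cell types, that of oocytes held the most falls with depletion, and genes of other lists fell too. All 11 listed oocyte markers were tested, and 8 fell at 16 h and 9 at 24 h, when the median log2 difference was -1.51, where 19.8% and 20.2% of all genes fell. Their summed level at 24 h ran from 3624 to 5343 CPM in depleted libraries and from 10557 to 12944 CPM in their ethanol controls. For 10 mitotic and meiotic germ cell genes, 1 rose and 2 fell at 24 h, shares at or below those of all genes (18.2% and 20.2%), with sums of 1859 to 2033 against 2063 to 2189 CPM. Embryo markers had 2 of 9 genes listed at 24 h, and both fell, with sums of 4.87 to 6.07 against 20.2 to 24.1 CPM. Of the 5 intestine genes 2 fell at 24 h, with sums of 207 to 321 against 314 to 397 CPM. At 16 h, 3 of the 5 intestine genes, 2 of 2 listed embryo genes and 1 of 3 listed neuron genes fell. Of the 10 germ cell genes 2 rose and 1 fell at 16 h, and 0 of the 5 muscle genes were called. None of the 5 muscle genes and none of the 3 listed neuron genes was called at 24 h, with sums of 379 to 827 against 439 to 484 CPM for muscle and of 6.07 to 6.74 against 6.15 to 7.31 CPM for neurons. No listed marker was at 0 in every library of a group, and the part of these shifts in the histone values was not tested.

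Over the 16 libraries at 16 h, the 5 other genes whose log2 values were most like those of htz-1 were atfs-1 (Pearson r = 0.93), cpr-4 (r = 0.93), lsy-2 (r = 0.92), F56B3.2 (r = 0.92) and ufm-1 (r = 0.91). These correlations are descriptive and share the libraries, their depth and their groups.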

How the data were processed

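Poly(A) RNA from whole adult C. elegans was sequenced in 44 directional libraries. The values used are log2 CPM deposited by the authors in 1 table per time. STAR, featureCounts and edgeR are named in the submitters' processing notes, with WBcel235 and ce11 as builds; versions, strand setting and the treatment of reads that match several copies are not given in the sources used here. The deposited log2 values hold an added count of on average 2 reads per library, and removing it returned whole reads, within 0.05 read, for 100% of values. CPM given here are those reads over the authors' scaled library size. Gene positions, introns and lengths came from Ensembl release 115.

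Each time was fitted on its own in R 4.3.3 by limma 3.58.1, all 4 groups in 1 model of the log2 values as deposited, with a mean-variance trend, on genes at 1 or more on the linear scale in as many libraries as the smallest group holds: 10971 of 10974 genes at 8 h, 10173 of 10178 at 16 h and 10411 of 10411 at 24 h. All adjusted p-values are Benjamini-Hochberg values over these genes. Errors after ± are SD over the 4 libraries of a group at 8 and 16 h and the 3 at 24 h. The script was tested on simulated data. The histone genes and all lists were chosen with earlier results of these data known. Values per library are given for the 3 called members of each family with the smallest adjusted p, and for htz-1 and htas-1 in any case. For lists, the 3 smallest adjusted p are named among called genes, and other names were chosen after their values were seen.

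At 24 h the deviations of same-numbered libraries from their group means correlated in every pair (0.18 to 0.53, 18 pairs), so the replicate number was taken as pairing them. At 8 and 16 h these correlations ran from -0.41 to 0.74 and from -0.31 to 0.71, and the number was not taken as pairing. Their medians were 0.35 at 8 h, 0.20 at 16 h and 0.32 at 24 h. For libraries with different numbers the medians at 8 and 16 h were -0.09 and -0.10, so some pairing at these times remains possible. No 2 libraries of a group agreed within sampling noise. The alternatives were another prior count, no filter, other scalings, a fit of 2 groups, library weights, robust shrinkage, the block and leaving out each library.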

Additional observations from a re-analysis of the deposited data

Results flagged for a closer look

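Among 128 groups of 4 libraries of the histone genes described by library, 6 had a highest or lowest library far from the other 3 by Dixon's criterion at the 95% level, where chance gives about 1 in 20 groups. They were hil-2 in HSF-1-AID ethanol 8 h, replicate 4, at 98.4 CPM, his-41 in TIR1-only auxin 8 h, replicate 4, at 22.4 CPM, his-62 in HSF-1-AID auxin 16 h, replicate 3, at 7.61 CPM, his-32 in TIR1-only ethanol 8 h, replicate 4, at 1.64 CPM, his-37 in TIR1-only ethanol 16 h, replicate 3, at 36.7 CPM and htas-1 in TIR1-only ethanol 8 h, replicate 2, at 0.394 CPM. Of these 6, 3 were in libraries numbered 4 at 8 h, which were deeper than the others.

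At 16 h the effect of auxin differed between the HSF-1-AID and TIR1-only strains, as a log2 difference of the 2 effects past an adjusted p of 0.05 in limma, in his-47 (0.70), his-57 (0.65), his-65 (0.64), his-68 (0.63), his-32 (0.97), his-40 (0.67), his-6 (0.90) and his-60 (-0.46). At 24 h the effect of auxin differed between the HSF-1-AID and TIR1-only strains, as a log2 difference of the 2 effects past an adjusted p of 0.05 in limma, in hil-2 (-1.14), his-35 (0.44), his-61 (-0.69), his-7 (1.37), his-41 (0.73), his-8 (1.54), his-32 (2.47), his-6 (1.36), his-63 (-0.86), his-5 (2.23) and his-60 (-0.65). At 24 h his-5, his-7 and his-8 passed the filter on low values only with the HSF-1-AID auxin group, so their values are descriptions.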

How the results depend on the processing

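The counts of called histone genes for depletion stayed within 1.5 times the reported 12 at 16 h and 22 at 24 h under a prior count of 0.5 read, no filter on low values, centring on the median gene, totals without rRNA reads, fits of only the 2 groups compared, the replicate block, library quality weights and robust shrinkage. The exception among these alternatives, in all comparisons, was the replicate block for the difference of auxin effects at 24 h, which raised 11 calls to 20. At 16 h the numbers were not taken as pairing the libraries, and the block gave 13 calls for depletion and 9 for the difference. Totals without rRNA reads gave 6 higher and 9 lower for depletion at 16 h, and centring gave 12 higher and 8 lower at 24 h, where hil-4, hil-5 and his-59 lost their calls. Centring moved the median of all genes at 24 h from -0.01 to 0.09 for depletion, and totals without rRNA reads moved it at 16 h from -0.03 to -0.14 for the difference. The cause was not tested.

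With 1 library left out in turn, calls ranged from 10 to 13 (depletion, 16 h), 14 to 23 (depletion, 24 h), 6 to 9 (difference, 16 h) and 5 to 9 (difference, 24 h). The 24 h ranges include the members that passed the filter only with the depleted group. The low counts at 24 h for the difference came without TIR1-only auxin replicate 1 (7) or 3 (6), TIR1-only ethanol replicate 2 (5), HSF-1-AID auxin replicate 2 (6) or 3 (7) and HSF-1-AID ethanol replicate 2 (6) or 3 (6). Counts of 0 stayed at 0 in every setting tried. No estimate of a called histone gene changed sign, and genes near 0 were not followed one by one. The median over the members did change sign. For depletion at 24 h it was -0.12 as reported and 0.02 with library quality weights. Counting near copies once, and leaving out the 5 members that passed the filter only with the depleted group (19 calls for depletion and 8 for the difference at 24 h), were chosen after the data were seen. The planned grouping by the stem-loop at the mRNA end was not run, since it needs sequence that was not used here.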
